A study of Mus musculus with 24 samples.

Results

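Genes whose level in liver tumours stood above, or below, that of all vehicle-treated and sorafenib-treated tumours in each of 10 tumour libraries taken after RMC-6272, at any time between 12 and 72 h after dosing, are described here. The 10 libraries titled RMC-6272 were set against 10 libraries titled vehicle or sorafenib, out of 24 in the series. All came from Lap-tTA/Tet-O-MYC mice of the FVB/N strain, in which the LAP promoter drives the tetracycline transactivator in hepatocytes and a human MYC transgene starts when doxycycline is withdrawn, here at 4 weeks of age. Controls therefore carried the active oncogene too. The ages at collection are not used here.

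The RMC-6272 mice received 10 mg/kg into the peritoneum once a week, and tumours were taken at 12 h (1 library) or at 24, 48 or 72 h (3 libraries each) after a second dose that followed the first by 7 days. The sorafenib mice received 30 mg/kg per day by oral gavage and gave tumours at 4 h (3 libraries), 24 h and 48 h (2 libraries each). The vehicle mice received the solvent mixture Transcutol, Solutol HS 15 and water (5/5/90) into the peritoneum and gave 3 libraries at 24 h. A first dose 7 days before is recorded for the sorafenib and vehicle libraries too. The labels do not say whether replicates came from separate animals, so p-values measure the spread between these samples.

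RMC-6272 is a bi-steric inhibitor of mTOR complex 1 (mTORC1), and sorafenib is a multikinase inhibitor used in liver cancer. mTORC1 is the kinase complex that couples amino acid and growth factor supply to cell growth: it phosphorylates 4E-BP1 and S6 kinase to promote translation, and it promotes nucleotide, lipid and amino acid supply, in part through the transcription factors ATF4 and SREBP, while restraining autophagy and lysosome genes. MYC drives ribosome production, nucleotide synthesis and the cell cycle, and tumours driven by MYC in liver lose part of the hepatocyte programme.

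Some amino acid supply genes carry a known regulatory letter pattern. Shown before the values are 4 promoter windows, chosen as examples among the windows that hold it. They run from 250 bases before to 50 bases after the gene start in RefSeq (build GRCm38.p6), and capitals mark the match to the ATF4 composite motif TGATGNAA, which was searched on both strands. Asns makes asparagine, and Gars, Iars and Yars charge transfer RNAs with glycine, isoleucine and tyrosine. The windows are chr6:7693160-7693459, minus strand for Asns, chr6:55037751-55038050, plus strand for Gars, chr13:49681880-49682179, plus strand for Iars and chr4:129189653-129189952, plus strand for Yars.
Asns: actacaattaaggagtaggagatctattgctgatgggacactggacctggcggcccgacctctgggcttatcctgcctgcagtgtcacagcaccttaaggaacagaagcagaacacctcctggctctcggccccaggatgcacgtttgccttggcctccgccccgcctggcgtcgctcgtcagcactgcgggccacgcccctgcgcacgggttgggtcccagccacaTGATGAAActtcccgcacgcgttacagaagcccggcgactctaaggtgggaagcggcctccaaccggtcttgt
Gars: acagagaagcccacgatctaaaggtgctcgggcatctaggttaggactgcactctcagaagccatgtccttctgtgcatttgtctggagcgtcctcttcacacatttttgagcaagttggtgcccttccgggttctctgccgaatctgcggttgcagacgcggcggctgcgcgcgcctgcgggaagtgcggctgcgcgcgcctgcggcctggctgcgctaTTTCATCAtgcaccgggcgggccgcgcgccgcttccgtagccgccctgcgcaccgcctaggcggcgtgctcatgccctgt
Iars: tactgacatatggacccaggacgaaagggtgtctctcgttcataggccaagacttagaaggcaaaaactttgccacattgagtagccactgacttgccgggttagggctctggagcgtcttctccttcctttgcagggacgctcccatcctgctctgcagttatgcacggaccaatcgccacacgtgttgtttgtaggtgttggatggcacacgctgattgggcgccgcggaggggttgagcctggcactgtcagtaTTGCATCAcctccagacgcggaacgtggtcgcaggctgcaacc
Yars: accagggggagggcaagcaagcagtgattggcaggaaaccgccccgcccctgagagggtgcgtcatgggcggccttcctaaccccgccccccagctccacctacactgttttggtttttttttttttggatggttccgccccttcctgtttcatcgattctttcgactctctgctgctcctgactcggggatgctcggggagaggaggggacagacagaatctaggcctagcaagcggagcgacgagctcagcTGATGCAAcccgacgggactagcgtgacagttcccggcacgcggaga
Genes were counted when any of their windows held the motif. It occurred in 7 of the 25 genes with a window in a list of 29 ATF4 targets (28.0%). Of the cytosolic tRNA synthetases with a window 5 of 12 held it (41.67%), beside 258 of 9555 among all genes tested (2.70%). The motif occurred in 10 of 363 such genes lower in each RMC-6272 library (2.75%) and in 10 of 249 of those higher (4.02%). The E-box CACGTG, which MYC and its partners bind and which reads the same on both strands, occurred in 54 of these 363 (14.88%), 26 of these 249 (10.44%) and 1140 of the 9555 (11.93%). A match describes letters in the window and is not a binding site. Of the genes printed, Asns and Gars were lower after RMC-6272 (below), and values of Iars and Yars are not given here. The ATF4 motif was also found for Pycr1, Slc1a4, Trib3, Chac1, Nupr1, Got1, Aars and Tars, whose directions are not given here. It was in no window found for Aldh18a1, Slc7a5, Slc7a1 or Slc1a5, which separated downward (below).

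Values are FPKM, fragment counts scaled by transcript length and sequencing depth, as deposited. The 13594 genes that reached 1 FPKM in 2 or more of the 20 libraries were tested with limma on log2(FPKM + 1). A gene was called separated when its lowest library on one side lay above its highest library on the other. The gap is the distance between those 2 libraries on that scale, and a misplaced library is one whose removal leaves the rest separated. Differences below are the mean of the RMC-6272 libraries minus the mean of the vehicle and sorafenib libraries on the log2(FPKM + 1) scale, ± SE, which understates changes of genes with low FPKM. Adjusted p is limma's, after Benjamini and Hochberg over all genes tested.

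Read totals of the 20 libraries were 17.6 to 41.7 M, by the size of the step that 1 read makes in each table column. The lowest total belonged to replicate 3 of RMC-6272 at 72 h, where globin genes took 6.24% of all FPKM and neutrophil genes were far higher than elsewhere. Leaving that library out is described beside some lists only, and other lists moved as well. G1 cyclins and CDK inhibitors went from 6 to 9 lower, and hepatocyte plasma proteins from 40 to 43 higher. The median of fatty acid oxidation genes went from 0.79 to 0.96, and that of lysosome and autophagy genes from 0.48 to 0.39. The tumours expressed hepatocyte genes: Alb, albumin, had 2063, 6211 and 12910 FPKM (lowest, median and highest) in RMC-6272 libraries and 732, 1245 and 3545 FPKM in vehicle and sorafenib libraries. The start of the description codes, whose meaning the labels do not give, was shared between RMC-6272 and sorafenib in 7 libraries and by no RMC-6272 and vehicle library. Elsewhere code and treatment cannot be told apart.

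In all, 7292 genes differed between the 10 RMC-6272 and the 10 vehicle and sorafenib libraries (53.6% of those tested), 3365 higher (24.8%) and 3927 lower (28.9%). On the log2(FPKM + 1) scale 751 were at least 2-fold higher (5.52%) and 228 at least 2-fold lower (1.68%). With median-ratio scaling the split was 4097 higher and 2895 lower, and with quantile normalization 2852 and 4364. Within the 7 libraries of the shared code starts, with the start in the model, 1937 genes passed. Their RMC-6272 libraries were 48 h replicates 1 and 2 and 72 h replicate 3, the rest were sorafenib, and none was vehicle. The 72 h library was the only RMC-6272 library of its start. With so few libraries the test is weaker, so not passing there does not by itself show an effect of the code. Differences of the genes named next were larger there for some and smaller for others. Of the genes chosen by rule and named below, S100a9, S100a8, Vnn3, Fgl1, Akr1c18, Hamp, Tfrc, Slc1a5, Gars, Rrm2, E2f5, Nr1i2, Gys2, Plvap, Aurka, Hmgb3, Alb, Mki67, Eif4ebp1 and Afp passed in the 20 libraries and not in these 7, in the same direction (adjusted p from 0.0503 to 0.304). Of all tested genes, 794 separated each of the 20 libraries (5.84%), 330 higher (2.43%) and 464 lower (3.41%). A further 1641 had 1 misplaced library (12.1%), 758 higher (5.58%) and 883 lower (6.5%). At the edge of the rule, Cep192 just separated with a gap of 1.34e-05, and Ywhab just failed at -9.16e-05.

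Separation selects genes by these same values, so that all 794 also passed the test adds nothing. Their median difference was 0.97 among the 330 higher and -0.71 among the 464 lower, beside -0.02 over all genes tested. The gaps were narrow, with medians of 0.098 and 0.072. The rises were larger than the falls: 153 higher and 80 lower separated genes changed at least 2-fold. Under median-ratio scaling 698 genes separated (448 higher, 250 lower) and under quantile normalization 690 (240 and 450). Of the 794, 406 separated in the same direction under both (207 higher, 199 lower), none turned round, and 792 passed the test in the same direction under both. Genes named below that separated under neither include Dkc1, Amd1, Eif4g2, Aurka and Hmgb3. Rrm2, E2f4 and Depdc5 did not separate after median-ratio scaling. After quantile normalization Pzp, Ahsg, Ctss, Nars, Gars, Eprs, Mcm5, Mcm6, Uhrf1, Ccna2, Spred1 and Plin2 did not.

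**Figure D1:**
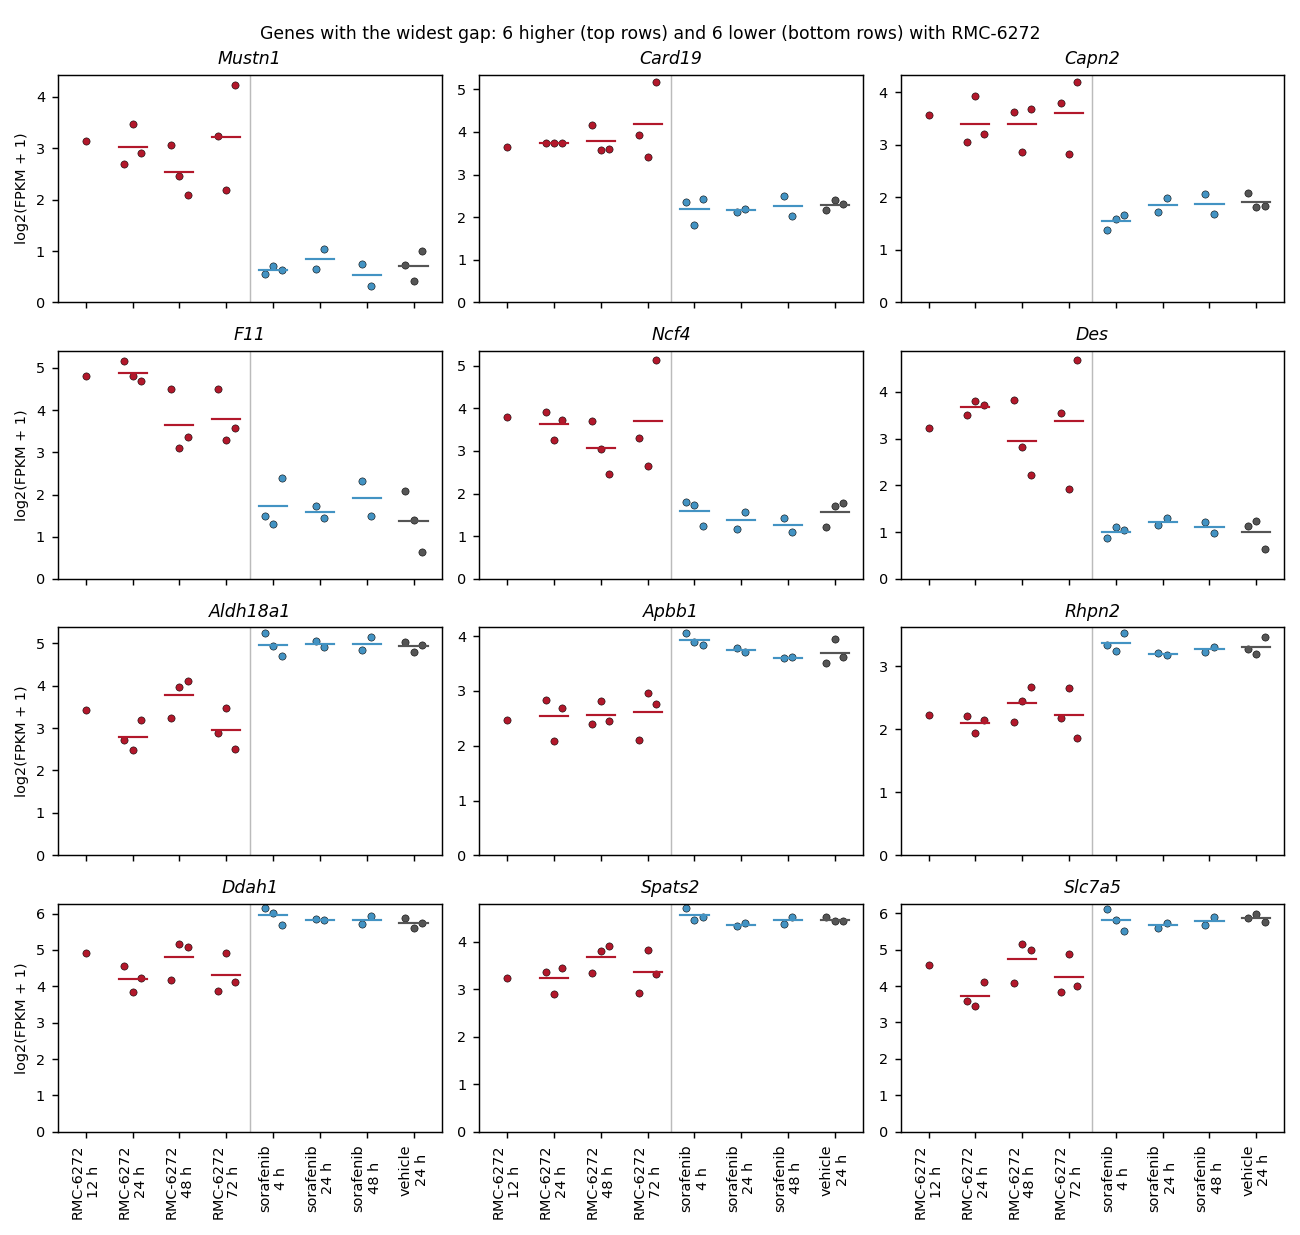
Log2(FPKM + 1) of 12 genes in each library (points) and the mean of each group (lines), with RMC-6272 in red left of the grey line and sorafenib (blue) and vehicle (dark grey) right of it. No point left of the line reaches the level of any point right of it, above or below, with gaps from 1.07 in Mustn1 to 0.36 in Slc7a5.

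The 12 widest gaps upward belonged to genes of several kinds. Mustn1, a small nuclear protein of muscle and skeletal development, had 3.28, 6.95 and 17.9 FPKM in RMC-6272 libraries, against 0.253, 0.601 and 1.05 FPKM in vehicle and sorafenib libraries (2.27 ± 0.20, adjusted p = 1.05e-06). Its lowest RMC-6272 library was more than its highest vehicle or sorafenib library by 1.07 on the log2 scale, the widest gap of any separated gene. Mean levels after RMC-6272 were 7.82 FPKM at 12 h, 7.39 ± 2.42 at 24 h, 5.04 ± 2.09 at 48 h and 9.99 ± 7.28 at 72 h, against 0.663 ± 0.326 in vehicle (SD). Card19, a mitochondrial CARD-domain protein, had 9.69, 12.4 and 35.2 FPKM after RMC-6272 and 2.54, 3.76 and 4.66 FPKM on the other side (1.64 ± 0.16, adjusted p = 1.79e-06), and its highest value belonged to 72 h replicate 3. Capn2, the large subunit of the protease m-calpain, had 6.08, 11.1 and 17.3 FPKM after RMC-6272 and 1.60, 2.40 and 3.23 FPKM without it (1.69 ± 0.16, adjusted p = 1.05e-06). Neither gene had a single overlapping library.

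F11, coagulation factor XI, which hepatocytes secrete, had 7.63, 21.6 and 35.1 FPKM in RMC-6272 libraries and 0.559, 1.81 and 4.28 FPKM in vehicle and sorafenib libraries (2.55 ± 0.27, adjusted p = 3.37e-06). At 12 and 24 h its means were 26.9 and 29.0 ± 5.45 FPKM, at 48 and 72 h 12.9 ± 7.64 and 13.7 ± 6.88, and in vehicle 1.81 ± 1.34. Des, the muscle and stellate cell filament desmin, was separated too, with 2.77 to 24.5 FPKM after RMC-6272 and 0.558 to 1.45 FPKM without it (2.25 ± 0.25, adjusted p = 4.25e-06). Cryab, a small heat shock protein that binds desmin, had 3.18 to 20.2 FPKM after RMC-6272 and 0.679 to 1.90 FPKM without it (1.70 ± 0.22).

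Among the others of the 12, Ncf4 is a subunit of the phagocyte NADPH oxidase, Coro1a an actin regulator of leukocytes, Ocstamp a fusion protein of osteoclasts and Ccl9 a chemokine. Ncf4 had 4.53, 10.4 and 34.3 FPKM after RMC-6272 and 1.14, 1.84 and 2.52 FPKM without it (2.02 ± 0.24, adjusted p = 6.61e-06). Coro1a, Ocstamp and Ccl9 differed by 1.50 ± 0.21, 2.23 ± 0.27 and 2.06 ± 0.25. Mmp12, the macrophage elastase, had 5.64, 22.5 and 48.0 FPKM in RMC-6272 libraries, against 1.12, 2.04 and 4.07 FPKM in vehicle and sorafenib libraries (2.77 ± 0.29, adjusted p = 2.53e-06). Within the second group its mean was 2.11 ± 0.363 at 4 h, 1.49 ± 0.514 at 24 h and 1.54 ± 0.575 FPKM at 48 h of sorafenib and 3.68 ± 0.397 in vehicle, all below the lowest RMC-6272 library. Fam20a, a pseudokinase of the secretory pathway, differed by 2.02 ± 0.23.

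By size of the difference, the largest separated rises were in secreted and innate immune genes. Pzp, an alpha-2-macroglobulin family protease inhibitor of mouse plasma, had 51.0, 124 and 442 FPKM after RMC-6272 and 3.76, 11.3 and 44.8 FPKM without it (3.31 ± 0.45, adjusted p = 1.51e-05). Ahsg, fetuin-A, had 905, 3058 and 5982 FPKM after RMC-6272 and 73.5, 350 and 857 FPKM without it (2.92 ± 0.41, adjusted p = 1.88e-05). Neither overlapped between sides, though the gaps were narrow (0.18 and 0.08). Ctss, the lysosomal protease cathepsin S of antigen-presenting cells, had 56.1, 233 and 339 FPKM after RMC-6272 and 30.2, 38.1 and 50.6 FPKM without it (2.30 ± 0.25, adjusted p = 3.22e-06). Vnn3, of the vanin pantetheinase family, and Trem2, a lipid receptor of macrophages, differed by 2.68 ± 0.32 and 2.31 ± 0.27. S100a9, a calcium-binding protein of neutrophils, had 2.59, 6.42 and 1665 FPKM after RMC-6272 and 0.313, 0.538 and 1.92 FPKM without it (3.02 ± 0.78, adjusted p = 0.00303), and its highest value was that of 72 h replicate 3.

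The widest gap downward was that of Aldh18a1, of proline synthesis. Amino acid transporters are set beside it: Slc7a5, among the 12 widest gaps, and Slc16a10 and Slc7a8, chosen by size of the difference only. Aldh18a1, which makes the proline precursor from glutamate, had 4.57, 8.23 and 16.1 FPKM in RMC-6272 libraries, against 25.0, 29.8 and 36.6 FPKM in vehicle and sorafenib libraries (-1.76 ± 0.18, adjusted p = 1.90e-06). Its means after RMC-6272 were 9.82 FPKM at 12 h, 6.05 ± 1.80 at 24 h, 13.1 ± 4.11 at 48 h and 7.03 ± 2.72 at 72 h, against 29.6 ± 2.46 in vehicle. The highest of them, at 48 h, still lay below each vehicle and sorafenib library. Slc7a5, the light chain of the leucine transporter LAT1, had 9.92, 16.2 and 34.6 FPKM after RMC-6272 and 44.7, 54.5 and 68.5 FPKM without it (-1.52 ± 0.19, adjusted p = 8.58e-06). Slc16a10, a transporter of aromatic amino acids, had 2.02, 3.73 and 12.7 FPKM after RMC-6272 and 13.3, 18.3 and 21.6 FPKM without it (-1.78 ± 0.20, adjusted p = 5.64e-06). Slc7a8, LAT2, had 0.862, 3.30 and 7.51 FPKM after RMC-6272 and 7.59, 12.3 and 19.2 FPKM without it (-1.57 ± 0.21, adjusted p = 1.57e-05), with a gap of only 0.015.

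Other wide gaps downward were as follows. Apbb1, an adaptor that binds the amyloid precursor protein, had 3.25, 5.00 and 6.80 FPKM after RMC-6272 and 10.4, 12.5 and 15.7 FPKM without it (-1.20 ± 0.11, adjusted p = 1.05e-06). Rhpn2 had 2.63, 3.56 and 5.39 FPKM after RMC-6272 and 8.06, 8.55 and 10.5 FPKM without it (-1.05 ± 0.10, adjusted p = 1.05e-06). Both were low in all 10 RMC-6272 libraries and high in all others. Fgd1, an exchange factor for Cdc42, differed by -1.32 ± 0.13, Prkci, an atypical protein kinase C of cell polarity, by -1.05 ± 0.12, and Dusp9, a phosphatase that inactivates ERK kinases, by -1.24 ± 0.18. Ppp1cc, a catalytic subunit of protein phosphatase 1, had 34.5, 38.2 and 49.2 FPKM after RMC-6272 and 63.2, 74.3 and 85.4 FPKM without it (-0.87 ± 0.08, adjusted p = 1.35e-06), a small fall with little spread on either side. Ddah1, which breaks down a nitric oxide synthase inhibitor, Spats2 and Ddc, the aromatic amino acid decarboxylase, differed by -1.35 ± 0.16, -1.06 ± 0.12 and -1.14 ± 0.16.

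Ccnb1, cyclin B1, had 9.15, 18.1 and 33.8 FPKM in RMC-6272 libraries and 42.4, 48.5 and 55.1 FPKM in vehicle and sorafenib libraries (-1.32 ± 0.18, adjusted p = 1.93e-05). Kif20a, a kinesin of cytokinesis, and Nek2, a centrosome kinase, differed by -1.54 ± 0.21 and -1.52 ± 0.19. Tfrc, the transferrin receptor that brings iron into cells, had 6.45, 14.9 and 30.0 FPKM after RMC-6272 and 36.4, 39.1 and 82.1 FPKM without it (-1.50 ± 0.26, adjusted p = 9.94e-05), and Ccdc85c differed by -1.46 ± 0.18.

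**Figure D2:**
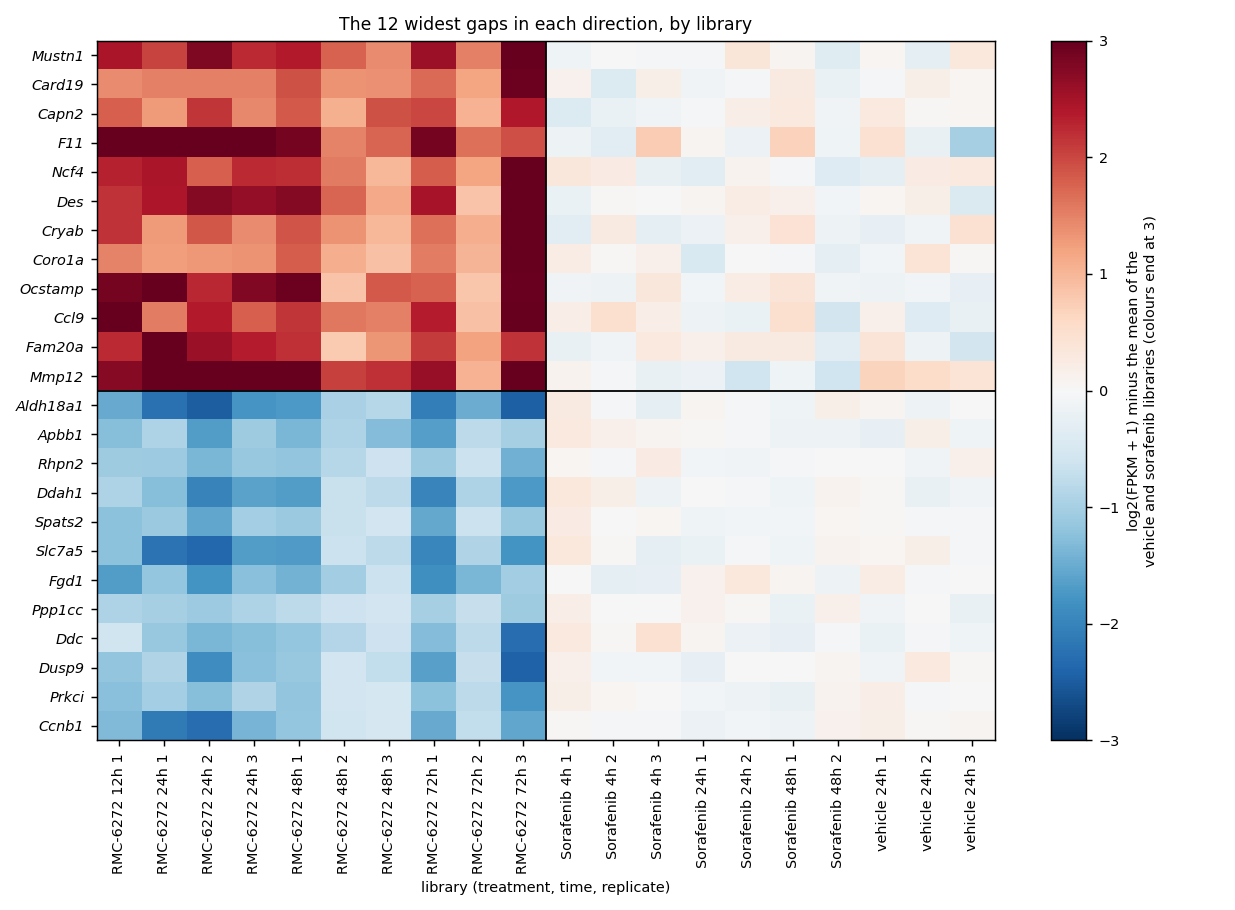
Log2(FPKM + 1) minus the mean of the vehicle and sorafenib libraries for the 12 genes with the widest gap in each direction (rows) in each of 20 libraries (columns), RMC-6272 left of the black line. The 10 RMC-6272 columns are red in the top 12 rows and blue in the bottom 12, palest at 48 h replicates 2 and 3 and 72 h replicate 2, and the 10 vehicle and sorafenib columns are near white.

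Gene lists put these members beside the rest of their pathways. A member is counted as higher or lower when it passed adjusted p, against the background of 24.8% higher and 28.9% lower of all genes. For separated members the background is 2.43% higher and 3.41% lower, and for those with 1 misplaced library 5.58% and 6.5%. A list with only a few such members can lie near these shares.

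The ATF4 target list of amino acid supply had 17 of 29 members lower and 3 higher, with a median difference of -0.61, beside -0.02 over all genes. Aldh18a1, Slc7a5, Slc7a1 (arginine and lysine transport), Slc1a5 (glutamine transport) and Asns separated each library, and 5 more fell with 1 misplaced library. Slc7a1 had 2.10, 3.72 and 7.76 FPKM after RMC-6272 and 9.60, 12.4 and 16.6 FPKM without it (-1.36 ± 0.17, adjusted p = 1.11e-05). Slc1a5 had 8.66, 13.2 and 24.0 FPKM after RMC-6272 and 26.3, 33.2 and 43.7 FPKM without it (-1.24 ± 0.17, adjusted p = 1.81e-05). Asns averaged 47.0 ± 16.9 FPKM in RMC-6272 libraries and 97.0 ± 8.67 FPKM in vehicle and sorafenib libraries (SD, n = 10 each; -1.11 ± 0.16, adjusted p = 3.15e-05). Among the 3 members that rose was Ddit3, the stress factor CHOP, with 8.65 ± 3.17 FPKM in RMC-6272 libraries and 4.86 ± 0.805 FPKM in vehicle and sorafenib libraries (0.66 ± 0.15, adjusted p = 0.00133).

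Mthfd2, the mitochondrial one-carbon enzyme, was among the largest falls with 1 misplaced library. It had 1.10, 4.44 and 17.7 FPKM after RMC-6272 and 16.7, 26.9 and 32.3 FPKM without it (-2.27 ± 0.33, adjusted p = 2.89e-05). The misplaced library was 72 h replicate 2, at 17.7 FPKM, and the other 9 lay below each vehicle and sorafenib library. Of the cytosolic tRNA synthetases, 17 of 20 fell and none rose, with a median of -0.51, and Hars, Nars, Gars and Eprs separated. Hars, which charges histidine, had 37.5, 41.5 and 60.8 FPKM after RMC-6272 and 70.3, 73.9 and 80.5 FPKM without it (-0.73 ± 0.09, adjusted p = 6.61e-06). Gars, whose promoter window is printed above, had 45.3, 65.2 and 81.2 FPKM after RMC-6272 and 87.4, 102 and 117 FPKM without it (-0.68 ± 0.11, adjusted p = 4.95e-05).

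Ribosome biogenesis genes fell in 35 of 38 members and rose in none, with a median of -0.60. Bop1, which processes ribosomal RNA, had 29.0, 36.5 and 48.9 FPKM after RMC-6272 and 56.9, 68.6 and 94.9 FPKM without it (-0.95 ± 0.11, adjusted p = 6.61e-06). Dkc1, the pseudouridine synthase dyskerin, had 13.1, 18.1 and 34.8 FPKM after RMC-6272 and 35.2, 40.4 and 48.1 FPKM without it (-1.02 ± 0.16, adjusted p = 5.60e-05). These 2 genes, Polr1a (the catalytic subunit of RNA polymerase I) and Rrp12 separated every library, by gaps of 0.22, 0.01, 0.02 and 0.02. Cytosolic ribosomal protein genes behaved differently: 3 of 45 rose and none fell, with a median of 0.20 as deposited and 0.33 after median-ratio scaling, but -0.17 after quantile normalization, where 17 fell and 1 rose. Their direction therefore depends on the scaling, and without 72 h replicate 3 the median as deposited was 0.10, with 2 higher.

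Of 27 purine and pyrimidine synthesis genes 23 fell and none rose (median -0.68). Ppat, the first enzyme of purine synthesis, had 8.05, 11.5 and 20.9 FPKM after RMC-6272 and 23.2, 27.9 and 34.3 FPKM without it (-1.15 ± 0.14, adjusted p = 8.91e-06). Rrm2, the small subunit of ribonucleotide reductase, had 11.6, 17.1 and 31.2 FPKM after RMC-6272 and 34.8, 49.1 and 60.6 FPKM without it (-1.31 ± 0.18, adjusted p = 1.84e-05). Pfas and Mthfd1, of purine and folate metabolism, separated as well (-0.96 ± 0.15 and -0.997 ± 0.17). In polyamine synthesis 7 of 12 fell and 2 rose. Amd1, which supplies the aminopropyl donor, separated (-1.11 ± 0.18, adjusted p = 7.05e-05), and Odc1, the first enzyme of the pathway, fell by 1.06 with overlap between sides.

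The kinase complex and its regulators moved less. Of 35 mTORC1 complex and upstream genes 13 fell and 2 rose (median -0.11). After median-ratio scaling 8 fell and 4 rose (median -0.003), and after quantile normalization 15 fell and 1 rose (median -0.14). As deposited but without RMC-6272 24 h replicate 2, 10 fell and 1 rose. Mtor itself had 3.68, 5.21 and 8.21 FPKM after RMC-6272 and 4.21, 5.04 and 5.72 FPKM without it (0.09 ± 0.10, adjusted p = 0.472), which overlapped and did not pass. Sesn3, a leucine-pathway sestrin, and Depdc5, of the GATOR1 complex that inhibits mTORC1, separated downward (-0.70 ± 0.09 and -0.50 ± 0.10), both at low levels. Depdc5 did not separate after median-ratio scaling. In the translation arm 11 of 20 fell and none rose (median -0.34), with Eif4g2 and the mRNA-binding protein Larp1 separated. After median-ratio scaling 9 fell and 3 rose (median -0.22), and Eif4g2 separated under neither other scaling. Eif4g2, a scaffold related to eIF4G, had 61.7, 66.9 and 91.2 FPKM after RMC-6272 and 94.9, 108 and 125 FPKM without it (-0.62 ± 0.08, adjusted p = 1.24e-05). Eif4ebp1, the mRNA of 4E-BP1, had 41.4, 58.5 and 95.1 FPKM after RMC-6272 and 51.8, 87.8 and 113 FPKM without it (-0.48 ± 0.16, adjusted p = 0.0137), with overlap. Eif4ebp1 did not pass after median-ratio scaling (-0.35, adjusted p = 0.053) or within the shared code starts (-0.25, adjusted p = 0.304). The phosphorylation of 4E-BP1, which mTORC1 controls, is not measured by RNA.

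Lipid and sugar genes fell widely but with few separated members. In cholesterol synthesis 17 of 24 fell and none rose (median -0.72), none of them separated. Idi1, an isomerase of the mevalonate pathway, had 0.976, 2.24 and 13.2 FPKM after RMC-6272 and 8.30, 11.4 and 16.9 FPKM without it (-1.84 ± 0.26, adjusted p = 2.04e-05), with 1 misplaced library. In fatty acid synthesis 10 of 23 fell and 2 rose. Scd2, a fatty acid desaturase, had 17.6, 44.4 and 388 FPKM after RMC-6272 and 240, 302 and 392 FPKM without it (-2.20 ± 0.43, adjusted p = 3.29e-04): 1 library reached the other side and 9 did not. In glycolysis 12 of 25 fell and 6 rose. Pgam1, phosphoglycerate mutase, was its only separated member, with 47.6, 76.3 and 140 FPKM after RMC-6272 and 148, 196 and 269 FPKM without it (-1.29 ± 0.18, adjusted p = 1.93e-05).

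**Figure D3:**
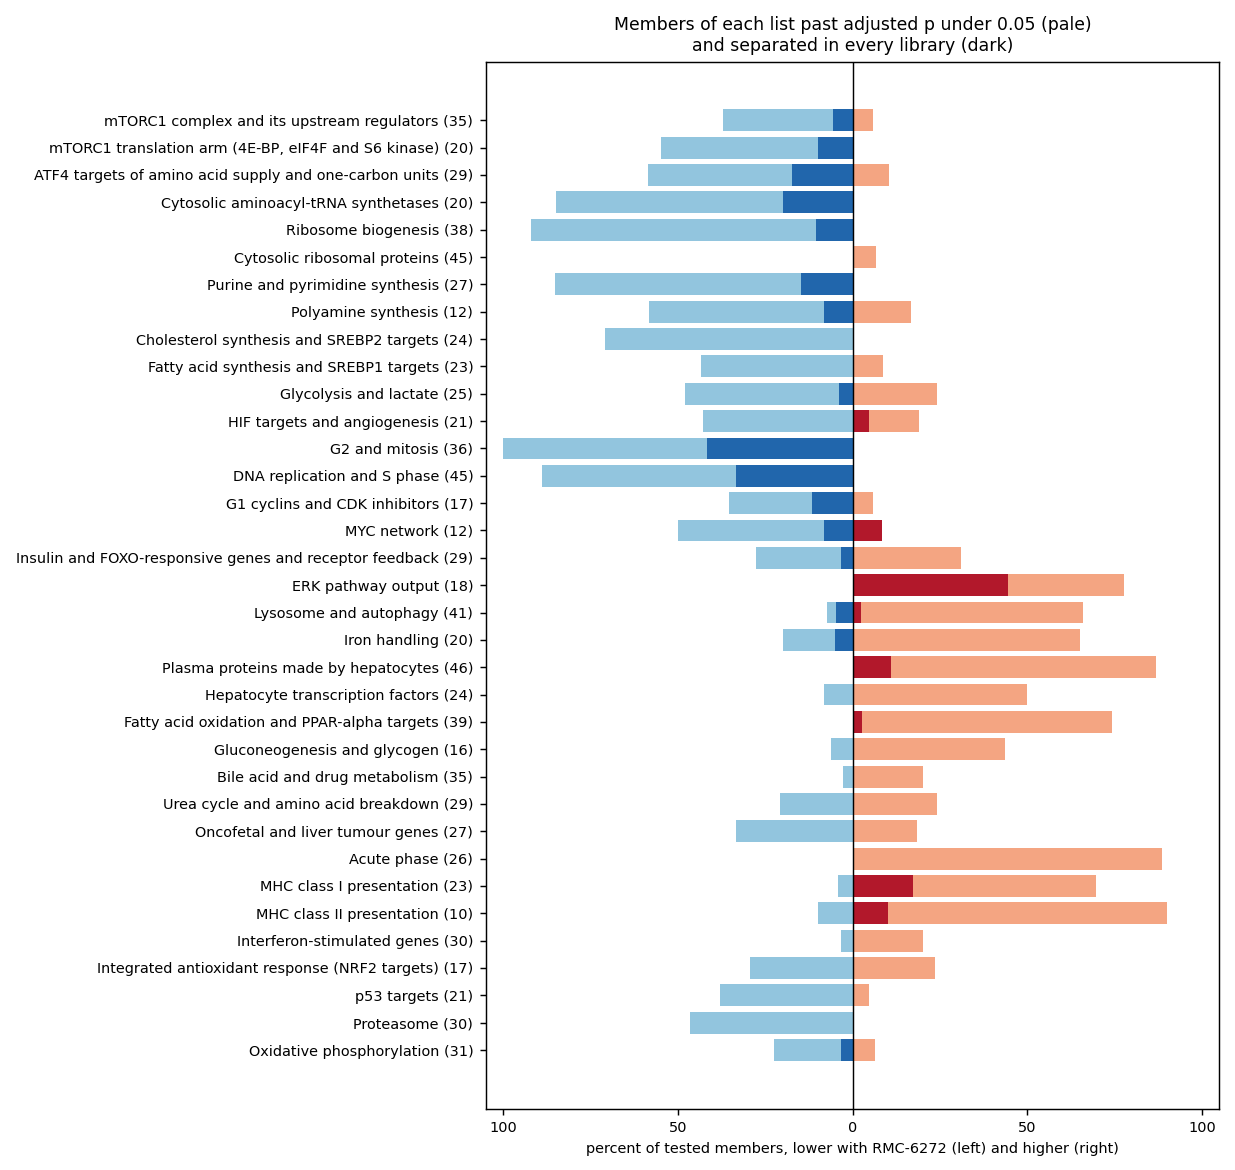
Percent of the tested members (number in brackets) of 35 gene lists that were lower (left, blue) or higher (right, red) after RMC-6272 than with vehicle or sorafenib at adjusted p under 0.05, with the members that separated each library in dark colour. All 36 members of the G2 and mitosis list are on the left, and 14 of 18 of the ERK pathway output list on the right, 8 of them dark.

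Cell cycle genes fell together. All 36 tested G2 and mitosis genes fell (median -1.01), and 15 separated each library. Aurka, a spindle kinase, had 9.61, 22.9 and 41.3 FPKM after RMC-6272 and 41.3, 45.3 and 55.2 FPKM without it (-1.06 ± 0.21, adjusted p = 3.32e-04). Foxm1, a transcription factor of mitotic genes, had 2.81, 5.42 and 9.46 FPKM after RMC-6272 and 10.7, 12.1 and 13.5 FPKM without it (-1.03 ± 0.14, adjusted p = 1.86e-05). Of 45 DNA replication and S phase genes 40 fell and none rose (median -0.79), 15 separated, among them Cdt1, which licenses origins (-0.90 ± 0.12, adjusted p = 1.76e-05), and Mcm5, of the replicative helicase (-1.08 ± 0.15, adjusted p = 1.89e-05). Mki67, which marks proliferating cells, had 5.86, 12.0 and 21.4 FPKM after RMC-6272 and 18.1, 22.8 and 24.9 FPKM without it (-0.76 ± 0.20, adjusted p = 0.00284), with overlap, and within the shared code starts Mki67 differed by -0.28 and did not pass (adjusted p = 0.282). Of 17 G1 cyclins and CDK inhibitors 6 fell and 1 rose (none without 24 h replicate 2), and E2f4 and E2f5 separated downward. In bulk tumour a lower share of dividing cells and less of these transcripts per cell cannot be told apart, and this holds for each cell type marker below.

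Mouse Myc rose while most of the MYC-linked lists above fell. It had 2.33, 6.12 and 7.85 FPKM after RMC-6272 and 0.768, 1.16 and 2.04 FPKM without it (1.43 ± 0.19, adjusted p = 1.40e-05), without overlap. The means were 5.92 FPKM at 12 h, 6.49 ± 0.181 at 24 h, 3.61 ± 1.86 at 48 h and 5.84 ± 3.06 at 72 h of RMC-6272, 0.864 ± 0.0915, 1.03 ± 0.281 and 1.61 ± 0.608 at 4, 24 and 48 h of sorafenib, and 1.63 ± 0.449 in vehicle. The lowest RMC-6272 value was that of 72 h replicate 2. The entry holds reads of the endogenous mouse gene plus whatever transgene reads map there, and is no measure of the oncogene that drives these tumours. In the MYC network 6 of 12 fell and Myc alone rose. Mlxip, MondoA, a partner of MLX in glucose sensing, separated downward (-0.65 ± 0.09, adjusted p = 1.47e-05).

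ERK pathway output rose in 14 of 18 members and fell in none, with a median of 0.95 and 8 separated, Spry1, Spry2, Spry4, Spred1, Dusp6, Egr1, Epha2 and Kcnn4. Epha2, an ephrin receptor, had 2.29, 3.44 and 7.77 FPKM after RMC-6272 and 0.451, 1.01 and 1.63 FPKM without it (1.29 ± 0.15, adjusted p = 6.61e-06). Spry1, a feedback inhibitor of receptor tyrosine kinase signalling, had 4.13, 6.80 and 9.26 FPKM after RMC-6272 and 2.86, 3.27 and 3.97 FPKM without it (0.77 ± 0.10, adjusted p = 1.45e-05). Dusp6, the ERK phosphatase, averaged 18.8 ± 11.3 FPKM in RMC-6272 libraries and 4.13 ± 0.682 FPKM in vehicle and sorafenib libraries (1.75 ± 0.25, adjusted p = 2.71e-05). Egr1, an immediate early transcription factor, averaged 15.9 ± 17.1 FPKM in RMC-6272 libraries and 2.41 ± 0.816 FPKM in vehicle and sorafenib libraries (1.92 ± 0.34, adjusted p = 1.21e-04), with a wide spread after RMC-6272. Since sorafenib inhibits RAF kinases, the references were also taken apart: 10 of 18 rose against vehicle alone, where 13.4% of all genes rose, and 13 against sorafenib alone, where 21.3% did. Both comparisons share the RMC-6272 libraries. Dusp6 differed by 1.71 from vehicle and 1.76 from sorafenib, and Epha2 by 1.07 and 1.39. Without 72 h replicate 3, 14 rose and 1 fell, 8 separated and the median was 0.72.

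Few genes passed between the 2 references in this test. Its spread is estimated over the RMC-6272 libraries as well, so it cannot show that the references are alike. Sorafenib against vehicle gave 1 gene by limma (0.00736%), and 309 at unadjusted p under 0.05 (2.27%). The gene that passed was Pdzrn3, lower with sorafenib and named after its value was seen. Mmp12, as an example, had 3.28 to 4.07 FPKM in vehicle and 1.12 to 2.47 FPKM in sorafenib libraries, yet did not pass (limma, unadjusted p = 0.0807). Against vehicle alone RMC-6272 changed 4359 genes (32.1%), 1817 higher (13.4%) and 2542 lower (18.7%), and against sorafenib alone 6403 (47.1%), 2896 higher (21.3%) and 3507 lower (25.8%). Vehicle had 3 libraries and sorafenib 7, which limits the first comparison most: without vehicle replicate 3 it gave 2089. Of the separated genes, 307 of 330 higher and 461 of 464 lower passed against vehicle, and all passed against sorafenib, in comparisons that use the values the genes were selected on.

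Hepatocyte plasma proteins rose in 40 of 46 members and fell in none (median 1.41), and Apoe, Serpina1b, F11, Ahsg and Pzp separated. Apoe, apolipoprotein E, averaged 5458 ± 2058 FPKM in RMC-6272 libraries and 2032 ± 489 FPKM in vehicle and sorafenib libraries (1.36 ± 0.21, adjusted p = 3.67e-05). Serpina1b, an alpha-1-antitrypsin gene, had 147, 298 and 501 FPKM after RMC-6272 and 59.4, 85.9 and 142 FPKM without it (1.72 ± 0.22, adjusted p = 1.23e-05), and as 1 of several near-identical Serpina1 copies its reads may be split uncertainly. Alb rose by 1.93 ± 0.37 (adjusted p = 2.70e-04), but its ranges overlapped, and within the shared code starts the difference was 0.87 and did not pass (adjusted p = 0.203).

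Fatty acid oxidation and PPAR-alpha targets rose in 29 of 39 and fell in none (median 0.79). Plin2, which coats lipid droplets, was the separated member, with 65.8, 279 and 477 FPKM after RMC-6272 and 24.1, 49.8 and 55.2 FPKM without it (2.17 ± 0.31, adjusted p = 2.48e-05), and 10 more had 1 misplaced library. Acadl, a long-chain acyl-CoA dehydrogenase, differed by 1.29 ± 0.20. Gys2, liver glycogen synthase, had 7.50, 32.6 and 73.9 FPKM after RMC-6272 and 2.67, 3.93 and 7.74 FPKM without it (2.33 ± 0.34, adjusted p = 3.01e-05), in a list of gluconeogenesis and glycogen genes with 7 of 16 higher and 1 lower.

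Acute phase genes had the largest median of all 35 pathway lists, 2.14, with 23 of 26 higher and none lower. None separated and 7 had 1 misplaced library. Hamp, the iron hormone hepcidin, had 154, 798 and 4469 FPKM after RMC-6272 and 13.6, 99.9 and 282 FPKM without it (3.16 ± 0.62, adjusted p = 3.23e-04), and Fgl1, a fibrinogen-like liver protein, had 1.50, 20.9 and 327 FPKM after RMC-6272 and 0.186, 1.15 and 4.80 FPKM without it (3.69 ± 0.72, adjusted p = 2.95e-04). The ranges of both overlapped between sides. Akr1c18, an aldo-keto reductase that breaks down progesterone, on no list, had 6.63, 28.8 and 75.9 FPKM after RMC-6272 and 0.261, 1.07 and 13.8 FPKM without it (3.29 ± 0.44, adjusted p = 1.52e-05), with vehicle replicate 3 as the misplaced library. Hepatocyte transcription factors were mixed: 12 of 24 rose and 2 fell (1 without 72 h replicate 3). Nr1i2, the xenobiotic receptor PXR, rose (1.90 ± 0.32, adjusted p = 8.35e-05).

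Lysosome and autophagy genes rose in 27 of 41 and fell in 3 (median 0.48). Ctss separated upward, and Tfrc and Atg9b, an autophagy membrane protein, downward. Atg9b had 1.10, 3.58 and 6.56 FPKM after RMC-6272 and 7.69, 8.72 and 11.5 FPKM without it (-1.28 ± 0.21, adjusted p = 7.50e-05). Of 20 iron handling genes 13 rose and 4 fell. Beside Hamp and Tfrc, Ireb2, an iron sensor that stabilises Tfrc mRNA, fell by 0.51 with 1 misplaced library.

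Oncofetal and liver tumour genes had 9 of 27 lower and 5 higher, and none separated. These counts are not far from the shares over all genes, 28.9% lower and 24.8% higher. Crabp2, a retinoic acid carrier, had 0.112, 0.388 and 9.56 FPKM after RMC-6272 and 5.99, 19.6 and 28.1 FPKM without it (-2.98 ± 0.40, adjusted p = 1.52e-05). L1td1, an RNA-binding protein of embryonic cells, had 0.0179, 0.200 and 3.66 FPKM after RMC-6272 and 3.47, 9.22 and 14.0 FPKM without it (-2.65 ± 0.26, adjusted p = 1.79e-06). Tff3, a trefoil peptide, had 1.05, 3.56 and 45.1 FPKM after RMC-6272 and 12.2, 28.2 and 54.0 FPKM without it (-2.33 ± 0.41, adjusted p = 1.33e-04). For each of the 3 a single library kept the sides from separating, and in Crabp2, L1td1 and Tff3 alike that library was 72 h replicate 2. Afp, alpha-fetoprotein, went the other way with 1294, 2565 and 10100 FPKM after RMC-6272 and 984, 1613 and 2203 FPKM without it (0.91 ± 0.32, adjusted p = 0.0213), with overlap, and its mean was 6874 ± 3016 FPKM at 24 h and 2019 ± 636 at 72 h. Afp did not pass after quantile normalization (0.34, adjusted p = 0.439), with no filter on low values (0.91, adjusted p = 0.0611) or within the shared code starts (0.91, adjusted p = 0.064).

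Antigen presentation genes rose. In MHC class I presentation 16 of 23 rose and 1 fell (median 0.66), and H2-D1, H2-Q4, H2-T22 and the peptide loading factor Tapbp separated. H2-D1, a classical class I heavy chain, had 164, 295 and 664 FPKM after RMC-6272 and 68.5, 116 and 157 FPKM without it (1.57 ± 0.21, adjusted p = 1.70e-05). H2 genes are near-identical copies whose reads may be shared. In MHC class II presentation 9 of 10 rose and 1 fell (none fell without 24 h replicate 2; median 1.97), and 7 had 1 misplaced library. Cd74, the invariant chain, had 248, 517 and 1510 FPKM after RMC-6272 and 69.7, 86.5 and 292 FPKM without it (2.51 ± 0.30, adjusted p = 6.93e-06). Of 30 interferon-stimulated genes 6 rose and 1 fell, below the background of all genes. Cd274, the checkpoint ligand PD-L1, had 1.43, 3.31 and 7.88 FPKM after RMC-6272 and 0.504, 1.04 and 2.58 FPKM without it (1.07 ± 0.21, adjusted p = 3.08e-04), with overlap.

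Markers of several non-parenchymal cell types were higher. Summed levels take each marker of a list that was found, including those too low to be tested. Endothelial markers rose in 11 of 14 members, with Flt1, Tek, Emcn and Plvap separated, and their summed level was 49.8 to 529 FPKM in RMC-6272 libraries (median 98.2) and 27.4 to 54.8 FPKM in vehicle and sorafenib libraries (median 36.4). Stellate cell and fibroblast markers rose in 11 of 14, with Des, Pdgfra and Pdgfrb separated, and summed to 110 to 464 FPKM (median 158) after RMC-6272 and 36.4 to 150 FPKM (median 66.0) without it. For both cell types the highest sum was that of 72 h replicate 3. The next RMC-6272 sums were 141 FPKM (endothelial, 48 h replicate 1) and 236 FPKM (stellate, 24 h replicate 2). The sums overlapped between sides: the endothelial sum of vehicle replicate 1 was 54.8 FPKM, against 49.8 and 54.1 FPKM in RMC-6272 48 h replicates 2 and 3, and the stellate sum of vehicle replicate 3, at 150 FPKM, lay above 4 RMC-6272 libraries. Pdgfrb, a receptor of pericytes and stellate cells, had 3.90, 9.81 and 14.1 FPKM after RMC-6272 and 1.31, 2.37 and 3.56 FPKM without it (1.69 ± 0.18, adjusted p = 2.53e-06).

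Macrophage and Kupffer cell markers rose in 11 of 18 and fell in 1, with Cd14 and Trem2 separated, and summed to 823 to 2731 FPKM (median 1906) after RMC-6272 and 623 to 1240 FPKM (median 923) without it. The member that fell was Timd4, a marker of resident Kupffer cells (-1.22 ± 0.24, adjusted p = 3.61e-04). Neutrophil markers rose in 4 of 8, with Csf3r and S100a9 separated, and summed to 7.32 to 2908 FPKM (median 18.2) after RMC-6272 and 1.80 to 5.36 FPKM (median 2.72) without it. These sums did not overlap between sides, and the highest was 72 h replicate 3. Without it 6 of 8 neutrophil, 11 of 18 macrophage, 11 of 14 endothelial and 11 of 14 stellate markers rose. Dendritic cell markers rose in 2 of 3 tested. The sums over all 9 listed, 6 to 12.2 FPKM after RMC-6272 and 2.64 to 3.90 FPKM without it, did not overlap either. T and NK cell markers rose in 3 of 7 (median 0.05), but after quantile normalization 2 rose and 1 fell (median -0.08), and without 72 h replicate 3 3 rose and 1 fell. B and plasma cell markers rose in 3 of 4, but after quantile normalization 2 rose and 1 fell, and without 72 h replicate 3 2 rose. Cholangiocyte and progenitor markers rose in 1 of 7 and fell in 1 (median -0.01), with none higher without 72 h replicate 3, and red cell markers rose in none of 6 (limma, adjusted p). Hepatocyte markers rose in 7 of 10 and summed to 6231 to 26440 FPKM (median 13720) after RMC-6272 and 3378 to 9213 FPKM (median 4763) without it. The part of these cell types in the antigen presentation, plasma protein and lysosome results was not tested.

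**Figure D4:**
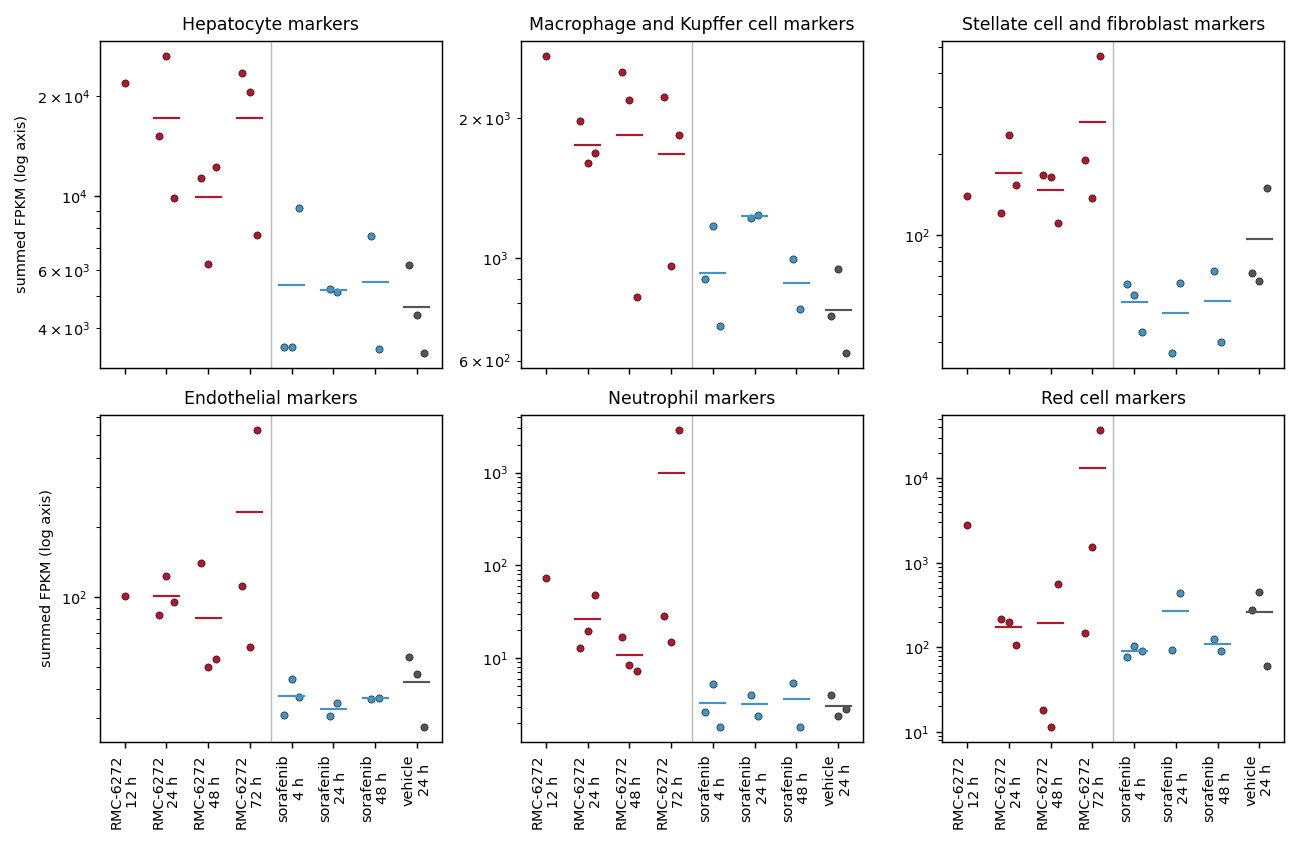
Summed FPKM (log axis) of the markers of 6 cell types in each library (points), with group means (lines), RMC-6272 left of the grey line and sorafenib and vehicle right of it. Neutrophil sums do not overlap between sides, at 7.32 to 2908 after RMC-6272 and 1.80 to 5.36 without it, while the sums of the other 5 types do.

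Differences of the separated genes are given by time as a description, since separation fixes their direction. The median difference of the 330 higher genes from the mean of the vehicle and sorafenib libraries was 1.12 at 12 h, 1.05 at 24 h, 0.77 at 48 h and 1.07 at 72 h, and of the 464 lower genes -0.74, -0.82, -0.47 and -0.75. Libraries of 1 time differed as well: the medians of the higher genes were 1.11, 0.65 and 0.53 in the 48 h libraries and 1.18, 0.49 and 1.39 in the 72 h libraries. Among the 4 times, 48 h held the largest difference in 7 of the 330 and 5 of the 464. A test of 24, 48 and 72 h gave 0 genes in limma over all genes tested, 3697 at unadjusted p under 0.05 (27.2%), and 218 of the 794 (27.5%). Without 72 h replicate 1 it gave 2638 genes, so the result rests on single libraries.

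The 6 separated genes with the smallest time p were Aurka, Hmgb3, Mcm6, Uhrf1, Ccna2 and Racgap1, none of which passed (adjusted p = 0.0703, a value that Dkc1, Prc1 and Mcm5 share). Aurka averaged 12.3 ± 3.46 FPKM at 24 h, 35.1 ± 8.91 at 48 h and 25.7 ± 7.29 at 72 h of RMC-6272, against 46.2 ± 5.22 in vehicle. Ccna2, cyclin A2, averaged 10.1 ± 3.76, 30.1 ± 8.44 and 24.3 ± 10.9 FPKM at these times, against 46.8 ± 4.51 in vehicle. Mcm6, of the replicative helicase, averaged 23.4 ± 8.73, 50.9 ± 8.12 and 30.9 ± 2.19 FPKM, against 68.5 ± 5.48.

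Single libraries decided how many genes separated. The median difference of the separated higher genes was smallest in 72 h replicate 2 (0.49), 48 h replicate 3 (0.53) and 48 h replicate 2 (0.65) and largest in 72 h replicate 3 (1.39). Leaving out 72 h replicate 2 added 536 genes to the 794, leaving out 48 h replicate 3 added 380, 48 h replicate 2 added 225 and sorafenib 48 h replicate 1 added 171. Without 72 h replicate 2 the separated genes thus numbered 1330, and without the 24 h replicate 2 and 72 h replicate 3 libraries 908.

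**Figure D5:**
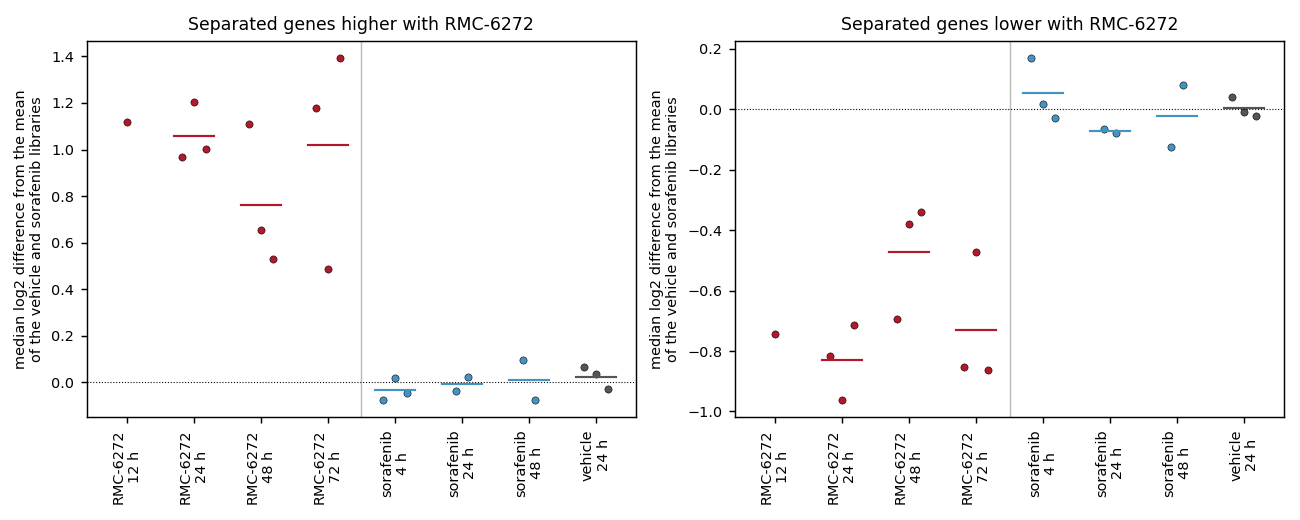
Median log2 difference of the 330 separated higher genes (left) and the 464 separated lower genes (right) from the mean of the vehicle and sorafenib libraries, per library (points) with group means (lines). RMC-6272 libraries lie between 0.49 and 1.39 on the left, and the libraries of 48 h lie nearer to 0 than those of 24 h on average.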

How the data were processed

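FPKM per gene was deposited by the authors for all 24 samples in 1 table of 54532 entries. Per the submitters' processing notes, reads were aligned with STAR 2.5 to mm9 and counted with HTSeq 0.6.1, and the gene lengths behind the FPKM are not given in the sources used here. Entries were taken by gene name, since identifiers were shifted against names in a block, and 27 names turned into numbers and 102 duplicate names were dropped. Libraries of doxycycline and RMC-4627 entered no comparison.

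Genes with FPKM of at least 1 in at least 2 of the 20 libraries (13594) were tested as log2(FPKM + 1), pseudocount 1, with limma 3.58.1 (trend) in R 4.3.3, with 1 mean per side; vehicle and sorafenib apart, and 24, 48 and 72 h, used fits with a mean per treatment or group. Tests were two-sided, with a threshold of adjusted p of 0.05. The fit was tested on simulated data.

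Named genes are the separated genes with the 12 widest gaps and 8 largest differences in each direction (mean FPKM of at least 5 on the higher side), the 4 largest each way with 1 misplaced library, up to 4 members per list with the smallest p, the 6 smallest time p, and Myc, Eif4ebp1, Mtor, Afp, Alb, Mki67 and Cd274. Some genes that the rule names are not reported here. Other genes are named because they separated or served as examples after their values were seen. The script that applies this rule first dropped F11 by its capital letters, and this was corrected after values were seen. The genes, the 45 lists and the tests were chosen with earlier results of these data known. Alternatives were the pseudocount, filter, scaling, left-out libraries, times, description codes and a replicate block. FPKM precision is limited by depth, 17.6 to 41.7 M reads by step size.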

Additional observations from a re-analysis of the deposited data

Results flagged for a closer look

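In 12 of 106 groups of values, over 51 named genes and the medians per library, 1 library stood far from the others of its side by Dixon's criterion. The nominal rate of about 1 in 20 does not apply here. Most of the genes were chosen from these same values, some because 1 library was misplaced, and the groups share libraries. RMC-6272 72 h replicate 3 was the highest RMC-6272 library for Card19 (35.2 FPKM), Cryab (20.2 FPKM), Coro1a (56.9 FPKM), S100a9 (1665 FPKM) and S100a8 (842 FPKM) and the lowest for Ddc (2.65 FPKM). That library also had the fewest reads and the most globin and neutrophil RNA. RMC-6272 72 h replicate 2 was the highest RMC-6272 library for L1td1 (3.66 FPKM) and Tff3 (45.1 FPKM). Its Tff3 value lay well inside the range of vehicle and sorafenib libraries, and its L1td1 value only just above the lowest of them.

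Among vehicle and sorafenib libraries, vehicle replicate 3 was far above the rest for Akr1c18 (13.8 FPKM) and Tfrc (82.1 FPKM), sorafenib 4 h replicate 1 for Spats2 (25.2 FPKM), and vehicle replicate 1 was far below for Eif4ebp1 (51.8 FPKM).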

How the results depend on the processing

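Of 6849 values of named genes under alternatives, 6682 kept direction and side of the threshold, 167 lost significance, 78 of them within the shared code starts, and 0 reversed. The count of 7292 kept within 1.5 times under all alternatives but the 7 libraries of the shared code starts (1937), and was 6730 to 7559 with 1 library left out. The 794 separated genes became 1832 at the times both sides share (24 and 48 h) and, in alternatives added after seeing the data, 1953 against vehicle alone and 1241 against sorafenib alone, sets with fewer libraries to separate. They were 794 to 1330 with 1 library left out. RMC-6272 against vehicle gave 2089 to 5052 and against sorafenib 5594 to 6808 with 1 library left out. Sorafenib against vehicle gave 0 to 1 so, 0 with a pseudocount of 0.1, the stricter filter, either other scaling or the replicate block, and 3 with no filter. The time test gave 0 to 2638 so and 7 with no filter; the cause was not tested. Replicate numbers did not pair the libraries (same-number deviations correlated from -0.50 to 0.49, median 0.02). With them as a replicate block the counts were 7127, 4099 against vehicle, 6257 against sorafenib and 93 for time. Vehicle at 24 h alone, 1 library at 12 h and FPKM with unstated lengths limit these results.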

Other observations

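Doxycycline (MYC off) and RMC-4627 libraries, 2 each at 24 h, showed no single-read steps, so their scale may differ and no test was made. Mustn1 had 9.80 and 12.2 FPKM with doxycycline and 14.4 and 16.8 FPKM with RMC-4627. Aldh18a1 had 4.78 and 3.36 FPKM with doxycycline and 1.62 and 2.62 FPKM with RMC-4627. L1td1 was listed at 0 in all 4. Card19 had 0.424 and 0.139 FPKM with doxycycline and 0 and 0.183 FPKM with RMC-4627. Tfrc had 140 and 131 FPKM with doxycycline and 141 and 47.9 FPKM with RMC-4627. Eif4g2 had 532 and 413 FPKM with doxycycline and 416 and 327 FPKM with RMC-4627, all above the vehicle and sorafenib libraries. Mthfd2 had 2.66 and 2.48 FPKM with doxycycline and 3.42 and 2.57 FPKM with RMC-4627.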
